A study of Mus musculus with 59 samples.

Results

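The genes described here are the 31 genes of nucleotide excision repair and translesion DNA synthesis that were followed in the lung, liver and forestomach of mice given benzo(b)fluoranthene (BbF), a polycyclic aromatic hydrocarbon of combustion products. They were chosen by name for their roles in the repair and bypass of bulky DNA lesions, with earlier results of these data known, so that their share of calls beside that of all genes is a description. The arrays carried 38 probes for them, 1 probe for each of 24 genes and 2 probes for each of the other 7 (Ercc8, Gtf2h2, Lig3, Polk, Rad18, Rad23b and Xpa), out of 55681 probes for 37163 genes or transcripts in all. In each of the 20 adult males of the transgenic Muta™Mouse strain (about 16 weeks of age), the vehicle was olive oil and the dosing was by daily oral gavage for 28 days. Mice 1 to 5 received olive oil alone, and mice 6 to 10, 11 to 15 and 16 to 20 received BbF at 25, 50 and 100 mg/kg body weight per day, called the low, medium and high dose. Every group, the vehicle group included, carried the strain's transgene, and tissues were taken 72 h after the last dose. The labels differ on the compound, since BbF is in the sample titles and the treatment description but benz(a)anthracene stands in the exposure tag and in the series' design. The doses match those of BbF in the study's methods. Each of the 12 groups of tissue and dose held 5 arrays of 5 mice, except the low-dose lung group with 4, because a lung array of mouse 7 was not analysed here. The replicates were separate mice, and their number limits the precision of every change.

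Nucleotide excision repair removes bulky adducts, such as those formed by activated polycyclic aromatic hydrocarbons. The lesion is found either across the whole genome, by XPC with its partners and by the UV-DDB complex, or where RNA polymerase stalls, with CSB (Ercc6), CSA (Ercc8) and UVSSA. The helicase complex TFIIH then opens the DNA, XPA and the single-strand binding protein RPA check and hold the opened strand, the nucleases XPG (Ercc5) and ERCC1-XPF (Ercc4) cut on either side, and the gap is filled and sealed. Lesions that persist into replication can be bypassed by translesion polymerases, among which polymerase kappa (Polk) is known for copying past guanines that carry bulky adducts of polycyclic aromatic hydrocarbons, REV1 is a scaffold and dCMP transferase, and REV3L with MAD2L2 forms polymerase zeta. RAD18 is the ubiquitin ligase that marks PCNA at stalled forks.

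Each value below is a normalised log2 ratio of the tissue's RNA (Cy5) to a common reference RNA pooled from mouse cell lines (Cy3), which was hybridised to the same array. A value of a probe is therefore its level relative to the reference, and values of different probes were not set against each other. A change is the mean log2 ratio of a dose group minus that of the vehicle mice of the same tissue. A gene was called changed when limma's moderated test gave a Benjamini-Hochberg adjusted p of at most 0.05 over all probes and the change was at least 1.5-fold (0.58 on the log2 scale) for any of its probes. Where a gene has 2 probes, the brighter is given unless the other is named.

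The tissue labels were checked against genes that define each tissue. The mean log2 ratio of 5 lung genes (surfactant genes, Scgb1a1 and Ager) was 6.33 to 7.18 in the lung arrays, that of 5 liver genes (including Alb) was 6.06 to 7.11 in the liver arrays, and that of 5 genes of stratified epithelium (including Krt13 and Krt4) was 4.13 to 5.01 in the forestomach arrays. Some arrays also held RNA of another tissue's genes. The low-dose lung of mouse 6 had a mean of 3.34 for the forestomach genes, against -0.37 in the next lung, and its Krt4 value of 5.73 was above the lowest forestomach array (5.41). The medium-dose forestomachs of mice 12 and 15 had means of 4.86 and 3.69 for the liver genes, against 2.73 in the next forestomach. The sample of mouse 12 lacks a tissue tag and was placed by its source name, and its mean of 5.01 for the forestomach genes was the highest of all arrays. In lung, the mean of the liver genes was 1.11 to 1.25 in the vehicle group and 0.94 to 1.96 in the high-dose group. Arrays were run on 3 slides per tissue, and on the third liver slide, with 8 arrays of mice from all dose groups, only 10.7% to 12.9% of probes were well above background, against 37.0% to 46.1% on the other 12 liver arrays, 44.7% to 68.8% in lung and 39.6% to 51.9% in forestomach. Of the 31 genes, 29 were above background on every lung array, 26 on every forestomach array and 7 on every liver array.

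In the lung at the high dose, Polk was higher than in the vehicle mice by 0.74 on the log2 scale and was the only gene of the 31 to be called. It was 1 of 31 (3.23%), against 1.93% of all genes called in that comparison. Changes that passed the adjusted p were also counted with no limit on their size, a rule added after the data were seen: 7 of the 31 genes (22.6%) passed, all higher and none lower, against 8.42% of all genes passing in either direction and 5.03% of all genes passing as higher. They were the translesion genes Polk, Rev1 and Mad2l2 and the excision repair genes Xpa, Ercc5, Ercc6 and Rad23b, the last by 1 of its 2 probes. With median centring in place of loess, 7 members were called, against 3208 of all 37163 genes (717 with loess). At any size, 16 members passed with median centring and 11 with probes above background alone, where the shares of all genes are not given. Genes with bright probes pass more readily, and among genes above background on every lung array 9.34% passed as higher, against 7 of the 29 members (24.1%). At the low dose, 0 genes were called against 0.449% of all genes, and at the medium dose 0 were called against 0.638%. With no limit on size, Ddb2 passed in low-dose lung (1 of 31, against 0.915% of all genes) and Xpa in medium-dose lung (1 of 31, against 2.66%).

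**Figure D1:**
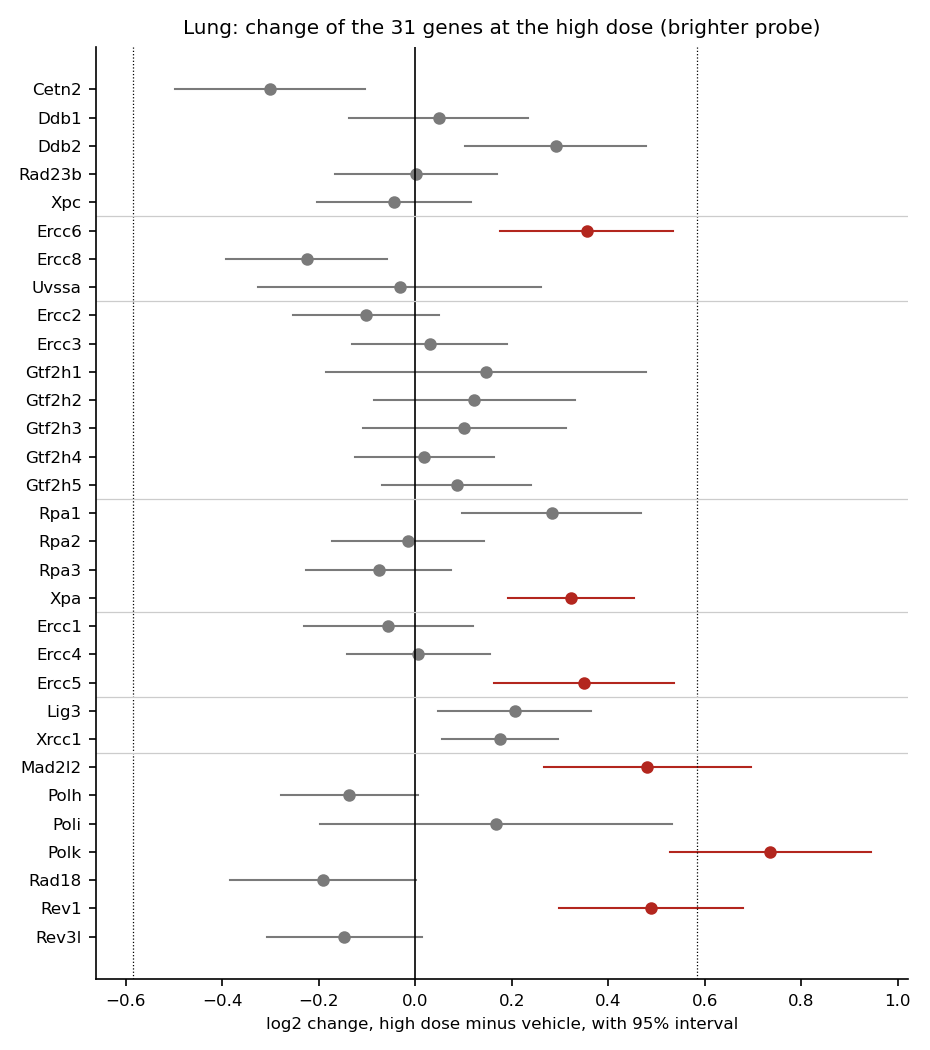
Change of each of the 31 genes in the lung at the high dose against vehicle (log2, brighter probe) with its 95% confidence interval, with red marking an adjusted p of at most 0.05 and dotted lines marking 1.5-fold. Polk, at 0.74, is the only gene whose estimate lies outside the dotted lines, and Rad23b's brighter probe sits at 0.00.

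Of the translesion synthesis genes, Polk had the largest change. In the lungs of vehicle mice 1 to 5 its log2 ratios were -0.11, -0.06, -0.38, 0.02 and -0.02. In the low-dose lungs (mice 6, 8, 9 and 10) they were 0.08, 0.31, 0.03 and -0.20, and in the medium-dose lungs 0.34, -0.11, 0.22, 0.31 and 0.02. In the high-dose lungs they were 0.57, 0.60, 0.69, 0.69 and 0.57. The lowest high-dose lung was thus above the highest lung of every other group, whereas the low-dose and medium-dose lungs overlapped the vehicle lungs. The change was 0.74 at the high dose (SE 0.10, 95% interval 0.53 to 0.94, 1.67-fold, limma adjusted p = 0.00013), 0.17 at the low dose (adjusted p = 0.71) and 0.27 at the medium dose (adjusted p = 0.20). A linear trend over dose, scaled to the high dose, was 0.73 (adjusted p = 6.6e-05), and Polk was the only member called for it, against 1.64% of all genes. Within each of the 3 lung slides, the high-dose mean exceeded the vehicle mean by 0.67, 0.87 and 0.65.

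The dimmer Polk probe gave a smaller change of the same direction. Its values were -0.08, -0.23, -0.07, -0.18 and -0.32 in the vehicle lungs and 0.24, 0.24, 0.16, 0.13 and 0.17 in the high-dose lungs, again without overlap. The change was 0.37 (SE 0.07, 95% interval 0.22 to 0.51, adjusted p = 0.0024), so that this probe alone would not have reached 1.5-fold. Within slides it was 0.39, 0.29 and 0.47.

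**Figure D2:**
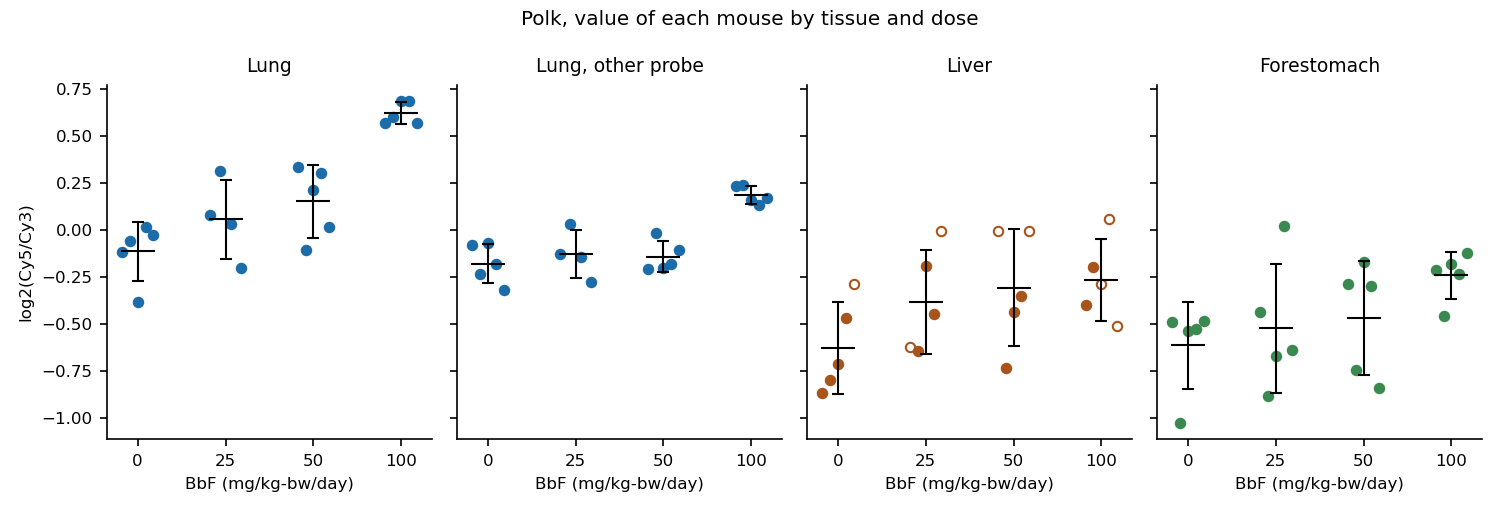
Log2 ratio of Polk in each mouse, by tissue and dose, with black bars for the mean and SD of each group, a panel for the dimmer probe in lung, and open circles for arrays of the third liver slide. The 5 high-dose lungs sit between 0.57 and 0.69, above all other lungs, while the groups of the liver overlap.

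Rev1 was higher at the high dose by 0.49 (SE 0.09, adjusted p = 0.0023). Its values were -0.91, -1.04, -0.96, -0.65 and -0.91 in the vehicle lungs and -0.48, -0.31, -0.25, -0.45 and -0.53 in the high-dose lungs, which did not overlap. The low-dose lungs, at -0.50, -0.48, -0.48 and -0.50, also lay above every vehicle lung, with a change of 0.41 that did not pass the test (adjusted p = 0.057). Medium-dose lungs ranged from -0.87 to -0.36. Mad2l2, the polymerase zeta subunit also known as REV7, was higher at the high dose by 0.48 (SE 0.10, adjusted p = 0.0063). Its values were -1.37, -0.71, -1.10, -0.98 and -1.15 in the vehicle lungs and -0.75, -0.45, -0.54, -0.57 and -0.58 in the high-dose lungs. Vehicle mouse 2, at -0.71, lay above the lowest high-dose mouse. The other translesion genes did not pass the test at the high dose: the change was -0.14 for Polh (polymerase eta), 0.17 for Poli (polymerase iota), -0.15 for Rev3l (the catalytic subunit of polymerase zeta) and -0.19 for Rad18.

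The promoters of the genes that passed in the high-dose lung were read from RefSeq (GRCm38.p6), because BbF can activate the aryl hydrocarbon receptor, which binds a xenobiotic response element with the core GCGTG. In the 250 bases before the start, GCGTG or its reverse complement CACGC was present at 9250 of 32851 starts of all genes (28.2%). Of the members, 26 had a sequence and 12 of them held a match. Members were counted as genes with a match at any of their starts (30 starts in all), unlike the share of starts above. Starts on a chromosome that was left out for the members were also kept in that share, so the 2 counts are not like for like. Of the 7 members that passed in the high-dose lung, 4 held a match (Rev1, Ercc5, Ercc6 and Rad23b), and 3 did not (Polk at either of its 2 starts, Mad2l2 and Xpa). The core is short, and a match is a description of the letters, not of binding. The 2 translesion genes with the highest changes are shown as the pair that differs, 5′ to 3′ on the gene's own strand, with the cores in capitals. The Polk stretch is chr13:96542580-96542829 (minus strand) and the Rev1 stretch is chr1:38129667-38129916 (minus strand), where the matches start 104 and 82 bases before the start.
Polk: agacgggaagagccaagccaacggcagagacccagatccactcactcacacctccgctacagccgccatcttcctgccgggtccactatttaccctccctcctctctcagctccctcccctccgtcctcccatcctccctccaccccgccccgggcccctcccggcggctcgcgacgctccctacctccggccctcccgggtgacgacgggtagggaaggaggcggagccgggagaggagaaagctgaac
Rev1: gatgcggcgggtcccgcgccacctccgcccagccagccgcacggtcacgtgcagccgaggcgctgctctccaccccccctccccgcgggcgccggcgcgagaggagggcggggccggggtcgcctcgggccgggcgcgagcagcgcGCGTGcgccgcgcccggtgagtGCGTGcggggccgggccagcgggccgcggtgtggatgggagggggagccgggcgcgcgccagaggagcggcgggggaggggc

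Among the damage recognition genes, Ddb2, the smaller UV-DDB subunit and a known p53 target in human cells, had a different order over dose. Its log2 ratios were -1.19, -1.31, -1.31, -1.34 and -1.13 in the vehicle lungs, -0.66, -1.01, -0.97 and -0.74 in the low-dose lungs, -1.11, -1.02, -0.96, -0.91 and -0.86 in the medium-dose lungs and -1.0, -1.05, -0.85, -0.72 and -1.21 in the high-dose lungs. The low-dose and medium-dose lungs were all above the vehicle lungs, and 1 high-dose lung fell among them. The change was 0.41 at the low dose (adjusted p = 0.048) and 0.29 at the high dose (adjusted p = 0.061). The low-dose call was at the edge of the threshold: it was lost in 16 of 19 fits that each left out 1 mouse, and without mouse 6, whose lung array held forestomach genes, the change was 0.35 (adjusted p = 0.20). Rad23b, which stabilises XPC, passed at the high dose by its dimmer probe (0.35, adjusted p = 0.024), with vehicle values of -0.43, -0.33, -0.30, -0.29 and -0.46 and high-dose values of -0.07, 0.09, -0.21, -0.08 and 0.19. Its brighter probe had a change of 0.00, so the probes disagreed. Xpc itself (-0.04), Ddb1 (0.05) and Cetn2, the centrin of the XPC complex (-0.30, adjusted p = 0.064), did not pass.

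Of the transcription-coupled repair genes, Ercc6, which encodes the ATPase CSB, was higher at the high dose by 0.36 (adjusted p = 0.014). The vehicle lungs read -0.18, 0.01, 0.06, -0.08 and -0.06 and the high-dose lungs 0.12, 0.44, 0.47, 0.09 and 0.40, without overlap. The low-dose lungs, at 0.30, 0.22, 0.18 and 0.39, also lay above all vehicle lungs, whereas the medium-dose lungs (-0.08 to 0.21) overlapped them. Ercc8, the partner CSA, was at -0.23 (adjusted p = 0.11) and Uvssa at -0.03. The 7 TFIIH genes (Ercc2, Ercc3, Gtf2h1, Gtf2h2, Gtf2h3, Gtf2h4 and Gtf2h5) had high-dose changes between -0.10 and 0.15, and none passed the test at any lung dose.

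Xpa, the scaffold protein that verifies the lesion, passed at both the medium and the high dose. Its brighter probe read 0.34, 0.19, 0.20, 0.34 and 0.38 in the vehicle lungs, 0.50, 0.45, 0.47 and 0.48 in the low-dose lungs, 0.74, 0.60, 0.58, 0.70 and 0.62 in the medium-dose lungs and 0.62, 0.56, 0.61, 0.76 and 0.52 in the high-dose lungs. Every exposed lung was above every vehicle lung, and the medium-dose and high-dose lungs covered the same range. The change was 0.36 at the medium dose (adjusted p = 0.0047) and 0.32 at the high dose (adjusted p = 0.0031). The dimmer Xpa probe had changes of 0.01 and -0.05 in the same comparisons, so this result rests on 1 of 2 probes. For the RPA genes the high-dose changes were 0.28 for Rpa1 (adjusted p = 0.066), -0.02 for Rpa2 and -0.08 for Rpa3.

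Ercc5, the XPG nuclease that cuts on the 3′ side of the lesion, was higher at the high dose by 0.35 (adjusted p = 0.021). Its values were -0.02, -0.10, -0.27, -0.14 and -0.04 in the vehicle lungs and 0.18, 0.20, 0.10, 0.33 and 0.38 in the high-dose lungs, without overlap. This call was lost in 3 of 19 fits that each left out 1 mouse (mouse 3, 19 or 20), and that of Rad23b in the fits without mouse 1, 5, 17 or 20. The other incision nuclease, Ercc1 (-0.06) with Ercc4 (0.01), did not change in a way that passed the test. For the nick-sealing pair, the scaffold Xrcc1 had a change of 0.18 and the ligase Lig3 had 0.21 by its brighter probe and -0.19 by the other, none of which passed. Counted over the brighter probes, 7 of 31 members had all 5 high-dose lungs above all 5 vehicle lungs (Ercc5, Ercc6, Polk, Rev1, Rpa1, Xpa and Xrcc1) and none had them all below, against 7.28% of all genes without overlap in either direction. The trend over dose passed at any size for 6 members (19.4%, against 7.42% of all genes): Polk, Mad2l2 (0.48), Rev1 (0.41), Ercc5 (0.33), Xpa (0.31) and the dimmer Rad23b probe (0.33).

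Over all members, changes in lung were more often above 0 than below it at each dose. Of the 31 changes, 23 were above 0 in low-dose lung, 23 in medium-dose lung and 20 in high-dose lung, with medians of 0.12, 0.12 and 0.05. The share of all genes above 0 is not given. Over the vehicle lungs, the members' median log2 ratio had an SD of 0.10, so these medians were small beside the spread of mice. At an unadjusted p below 0.05 in limma's test, 8 members passed in low-dose lung (all higher), 11 in medium-dose lung (9 higher) and 12 in high-dose lung (10 higher), which were 25.8%, 35.5% and 38.7% of members against 10.1%, 16.1% and 20.9% of all genes. Rpa1, the large RPA subunit, read -1.11, -0.82, -0.96, -0.98 and -1.02 in the vehicle lungs and -0.81, -0.54, -0.59, -0.79 and -0.75 in the high-dose lungs, which lay just above them. Xrcc1 read -1.09, -1.03, -1.20, -1.03 and -1.0 in the vehicle lungs and -0.88, -0.92, -0.89, -0.85 and -0.93 in the high-dose lungs, a small shift with little spread. Cetn2 and Ercc8 were the members with values below vehicle at that level of p in high-dose lung. Cetn2 read 1.10, 0.79, 1.04, 1.05 and 1.06 in the vehicle lungs and 0.95, 0.65, 0.82, 0.54 and 0.57 in the high-dose lungs, which overlapped. The whole-genome sensor Xpc covered overlapping ranges, with 0.92 to 1.37 in the vehicle lungs and 0.98 to 1.18 in the high-dose lungs. The 95% interval of the change lay within 1.5-fold in both directions for 28, 30 and 28 members in low-dose, medium-dose and high-dose lung.

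**Figure D3:**
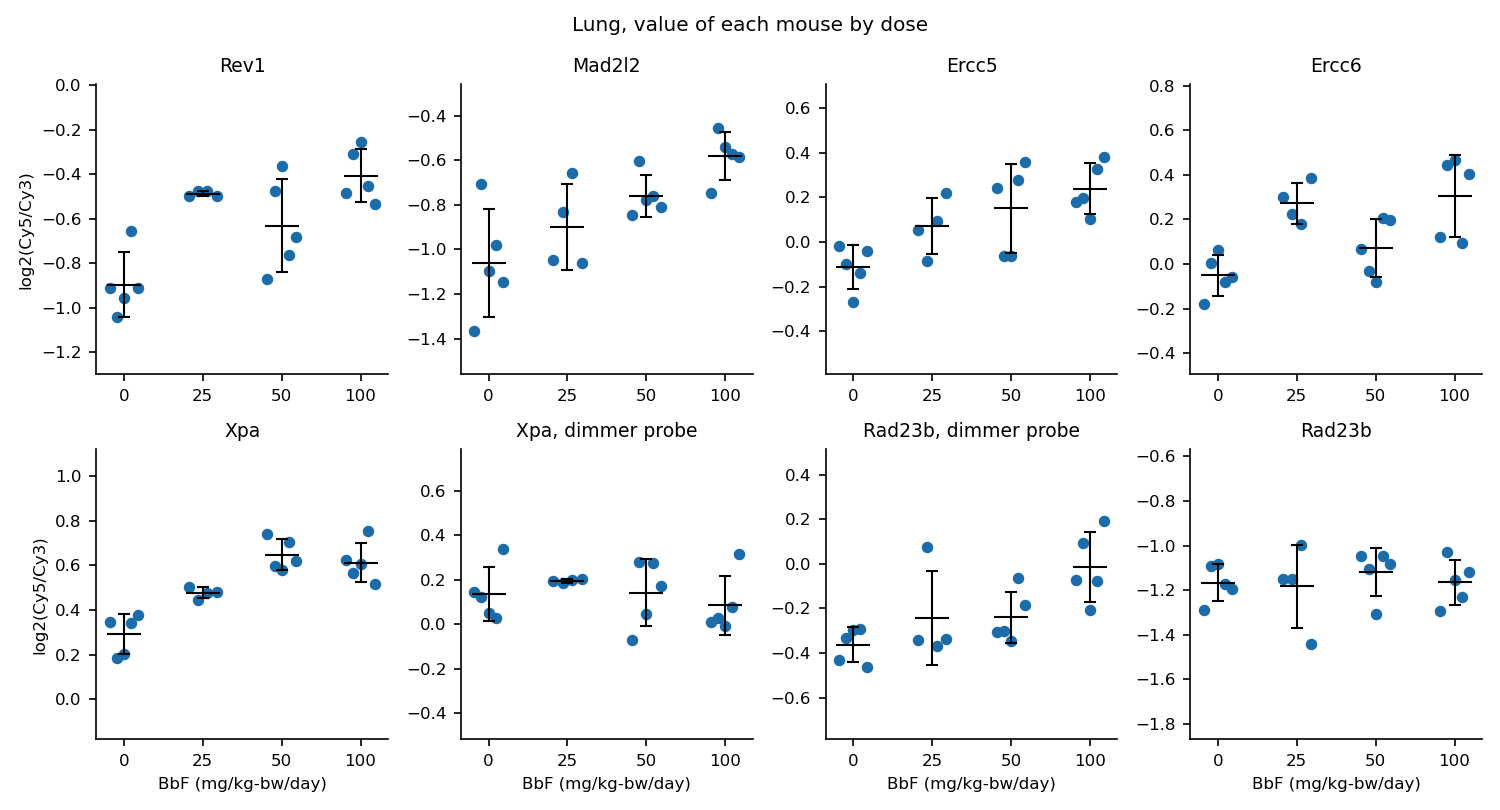
Log2 ratio in each lung by dose (mg/kg body weight per day) for the other 6 members that passed the adjusted p in the high-dose lung, with black bars for the mean and SD of each group and both probes of Xpa and Rad23b. The exposed lungs of Xpa's brighter probe lie above the vehicle lungs at every dose, and those of its dimmer probe do not.

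These were RNA levels of whole tissue, in which a change in the share of a cell type and a change of RNA per cell cannot be told apart. Markers of dividing cells differed between the same lungs. Of 10 proliferation genes, 6 were called higher at the low dose (among them Mki67 by 2.12 and Birc5 by 2.08), 5 at the medium dose and Mki67 alone at the high dose (0.63). The mean level of the 10 genes was -3.33 to -2.91 in the vehicle lungs, -2.22 to -2.08 in low-dose, -2.60 to -2.23 in medium-dose and -3.19 to -2.45 in high-dose lungs. The proliferation genes were thus highest where Polk overlapped the vehicle lungs, and the mean of Ddb2 was highest in the same low-dose lungs. Of 11 leukocyte genes, 10 had changes above 0 in the high-dose lung, with a median change of 0.31. There the neutrophil gene S100a8 (1.20) was called higher and Cd8a was higher by 0.38. Itgam had a change of -0.42 that turned to 0.10 with median centring in place of loess. The mean level of the leukocyte genes was 0.70 to 1.53 in the vehicle lungs and 1.05 to 1.68 at the high dose. Of the 5 liver genes, 3 had changes above 0 in the high-dose lung (median 0.38), and Apoa2 passed (0.50, adjusted p = 0.0084). The part of dividing cells, leukocytes or liver RNA in the repair genes' changes was not tested.

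The genes that act after incision followed another order over dose than Polk. Of 15 genes of gap filling (PCNA, its clamp loader, polymerase delta and epsilon subunits and DNA ligase I), 15 had changes above 0 in low-dose lung, 13 in medium-dose lung and 11 in high-dose lung, with medians of 0.29, 0.26 and 0.14, where the median of all genes was within 0.01 of 0. The 10 proliferation genes had the same order over dose, with median changes of 0.71, 0.57 and 0.17. The part of dividing cells in the gap-filling genes' changes was not tested. Pcna, the replication clamp on which both resynthesis and translesion synthesis depend, was called at the low dose (0.60, 1.51-fold, adjusted p = 0.0052) and at the medium dose (0.66, adjusted p = 0.0011), and passed with a change of 0.42 at the high dose. The clamp loader genes Rfc1 (0.40), Rfc4 (0.47) and Rfc5 (0.43) and the ligase Lig1 (0.45) passed at the medium dose, and Rfc1 and Rfc5 (both 0.34) at the high dose. Of 11 genes of PCNA ubiquitination and other bypass factors, 0 passed at the low dose. The deubiquitinase Usp1 (0.36) and Zranb3 (0.42) passed at the medium dose. Both E2 enzymes that work with RAD18 passed in the high-dose lung, in opposite directions: Ube2a was at 0.27 and Ube2b at -0.38 (-0.31 by its other probe), although with median centring both Ube2b probes were above 0 (0.11 and 0.19). In the high-dose liver and forestomach, none of the genes of these lists passed. None of 12 genes of the TFIIH kinase and related factors passed at any lung dose.

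In the liver, 0 of the 31 genes were called at any dose, against 0% of all genes at both lower doses and 0.00538% at the high dose, and 0 for the trend over dose, against 0.0135%. At an unadjusted p below 0.05 in limma's test, 2, 3 and 6 members passed at the low, medium and high dose, and 6.45%, 9.68% and 19.4% of members compare with 3.34%, 4.61% and 8.08% of all genes. Precision was lower than in lung: the SE of a change had a median of 0.15 over the members, against 0.08 to 0.09 in lung, and the 95% interval lay within 1.5-fold in both directions for 17 of 31 members at the high dose, against 28 in lung. Over the 31 genes, the high-dose changes had a median of 0.16, and of 0.07 without the arrays of the third liver slide, on which 3 of the 5 high-dose livers and 1 vehicle liver were run.

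Ddb1, the larger UV-DDB subunit and an adaptor of a ubiquitin ligase, had the lowest adjusted p of the members in the high-dose liver. It read -1.10, -1.01, -1.28, -0.93 and -1.01 in the vehicle livers and -0.88, -0.70, -0.62, -0.45 and -0.53 in the high-dose livers, without overlap. The change was 0.43 (95% interval 0.21 to 0.65, adjusted p = 0.28). Within the slides that held both groups it was 0.27 and 0.48, and without the third slide it was 0.29. Ddb1 was the only member without overlap in the high-dose liver, against 1.17% of all genes.

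The largest liver changes were those of Ddb2 (0.59), Rpa1 (0.56), Rpa3 (0.54) and Rad18 (0.54, and 0.58 by its dimmer probe), and none passed the test (adjusted p = 0.69, 0.48, 0.67 and 0.71). Ddb2 read -1.30, -1.29, -1.10, -1.32 and -0.26 in the vehicle livers and -1.08, -1.15, -0.26, 0.16 and 0.03 in the high-dose livers. The high value of vehicle mouse 5 and the 3 high values of the high-dose mice 18, 19 and 20 were all from the third slide, and without that slide the change was 0.13. Likewise, the change without it was 0.37 for Rpa1 and 0.29 for Rpa3. Rad18 read -1.57, -1.56, -1.10, -1.03 and -0.27 in the vehicle livers and -1.43, -0.94, 0.02, -0.31 and -0.20 in the high-dose livers, and its change within the slides that held both groups was 0.38 and 0.11. With median centring in place of loess, the high-dose liver changes of Ddb1 (-1.78), Ddb2 (-0.24), Rpa1 (-1.33) and Rpa3 (-1.07) were below 0. Polk read -0.87, -0.80, -0.71, -0.47 and -0.29 in the vehicle livers and -0.40, -0.20, -0.29, 0.06 and -0.51 in the high-dose livers, which overlapped, with a change of 0.36 (95% interval 0.02 to 0.70, adjusted p = 0.65). Its dimmer probe was not above background on any liver array.

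In the forestomach, 0 of the 31 genes were called at any dose, also when any 1 mouse was left out (mice 12 and 15 with liver genes included), against 0% of all genes at both lower doses, 0.102% at the high dose and 0.0888% for the trend. At an unadjusted p below 0.05, 2, 2 and 5 members passed in limma's test at the low, medium and high dose. These were 6.45%, 6.45% and 16.1% of members, against 4.7%, 5.84% and 9.03% of all genes. The 95% interval lay within 1.5-fold for 28 of 31 members at the high dose, and the median change was 0.02. Xpa came nearest to the threshold. Its brighter probe read 0.05, -0.15, 0.35, 0.25 and 0.36 in the vehicle forestomachs and 0.26, 0.55, 0.75, 0.57 and 0.57 in the high-dose forestomachs, which overlapped, with a change of 0.37 (95% interval 0.14 to 0.60, adjusted p = 0.27), while its dimmer probe had 0.01. Polk read -0.49, -1.03, -0.54, -0.52 and -0.48 in the vehicle forestomachs and -0.21, -0.46, -0.18, -0.23 and -0.12 at the high dose. It was the only member without overlap there, against 2.48% of all genes, and its change of 0.37 did not pass (95% interval 0.04 to 0.70, adjusted p = 0.50). The dimmer Polk probe had a change of -0.07. Polh had a change of -0.26 (95% interval -0.50 to -0.02, adjusted p = 0.53).

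**Figure D4:**
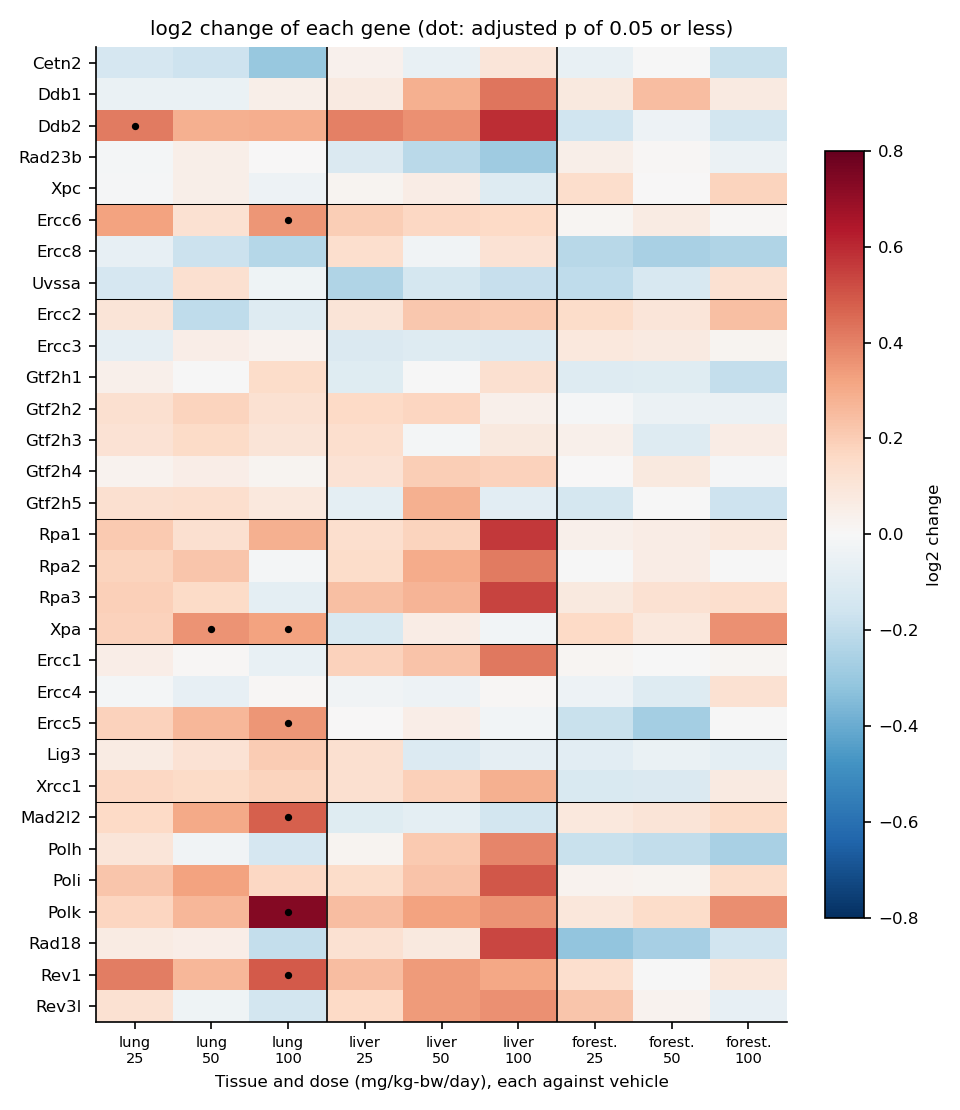
Change (log2, brighter probe, colour scale) of the 31 genes, ordered by role, in the 9 comparisons of a dose with vehicle, with dots where the adjusted p was at most 0.05. The dots lie in the lung columns only, and most of them in the high-dose column.

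Whether the high-dose changes differed between tissues was tested directly, as a difference of 2 changes. At the call threshold, 0 members differed between lung and liver (against 0.439% of all genes), 0 between lung and forestomach (against 1.03%) and 0 between liver and forestomach (against 0.0404%). An unadjusted p below 0.05 in limma's test was found for 11, 7 and 7 members. These were 35.5%, 22.6% and 22.6% of members, against 10.8%, 11.5% and 7.31% of all genes. Of these members, 5, 6 and 4 had the higher change in the tissue named first. Both comparisons with liver include the third liver slide, with 3 high-dose livers and 1 vehicle liver. For Polk, the lung change exceeded that in liver by 0.38 (95% interval -0.02 to 0.77) and that in forestomach by 0.36 (-0.02 to 0.75), both with an adjusted p of 0.53. By the dimmer probe these differences were 0.31 (95% interval 0.06 to 0.57, adjusted p = 0.38) and 0.43 (0.19 to 0.67, adjusted p = 0.069), with intervals above 0 that did not pass the adjusted test. The dimmer probe was not well above background on any liver array, so its value there is only a bound. Ddb2 was the only member to pass at any size, between lung and forestomach (against 1.35% of all genes). Its high-dose change was 0.29 in lung and -0.15 in forestomach, where the vehicle mice read -1.16, -1.25, -1.04, -1.27 and -1.09 and the high-dose mice -1.47, -1.24, -1.20, -1.29 and -1.33. The difference was 0.44 (SE 0.11, 95% interval 0.21 to 0.66, adjusted p = 0.039), and it was lost in 9 of 20 fits that each left out 1 mouse. For Mad2l2, the lung change exceeded the liver change by 0.63 (95% interval 0.30 to 0.95, adjusted p = 0.076).

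Without BbF, more of these genes differed between tissues than were called at any dose against vehicle. The same held for all genes, of which at most 1.93% were called at any dose. Of the 31 genes, 11 differed between vehicle lung and liver (35.5%, against 30.2% of all genes), 9 between lung and forestomach (29.0%, against 25% of all genes) and 4 between liver and forestomach (12.9%, against 24.4% of all genes). The last count was 2 without mouse 1 and 7 without mouse 3. Each of these differences kept its direction with normexp background correction, with median centring and in the authors' processed values. With median centring, however, 1, 7 and 1 of the 31 genes were called, against 5078, 8349 and 3703 of all 37163 genes. The loess step centres each array on its own, so these are differences relative to the other genes of a tissue.

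Several damage recognition genes were highest in lung. Xpc, the whole-genome damage sensor, was at 1.17 ± 0.18 (SD, n = 5) in lung, 0.36 ± 0.12 in liver and -0.21 ± 0.22 in forestomach, so that lung exceeded liver by 0.81 and forestomach by 1.38 (adjusted p = 7.4e-07). Cetn2 was also highest in lung, at 1.01 ± 0.12, against -0.27 ± 0.05 in liver and 0.16 ± 0.25 in forestomach, and exceeded liver by 1.28 (adjusted p = 9.8e-08). Ddb1 was at -0.19 ± 0.03 in lung and lower in liver (-1.07 ± 0.13) and forestomach (-1.01 ± 0.13), by 0.88 and 0.82, while liver and forestomach did not differ beyond their spread. Rad23b had the opposite order, at -1.17 ± 0.08 in lung, 0.22 ± 0.22 in liver and -0.02 ± 0.16 in forestomach. Its dimmer probe had the same direction for lung against liver (-0.88) and lung against forestomach (-0.27). Thus the partners of the XPC complex were not ordered alike over the tissues.

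In the TFIIH group, the core subunit genes Gtf2h2 (-0.65), Gtf2h3 (-0.60) and Gtf2h4 (-0.74) were lower in lung than in liver, and Gtf2h3 was also lower in lung than in forestomach (-0.66). The call of Gtf2h3 against liver was lost without mouse 1, 2 or 4 and without the third liver slide. Of the incision genes, Ercc1 was highest in forestomach (-0.33 ± 0.30), against -1.22 ± 0.15 in lung and -1.48 ± 0.71 in liver, where lung and liver did not differ beyond their spread. The call of Ercc1 between liver and forestomach was lost without mouse 1, 2 or 4. Lig3 was lower in lung than in liver by both probes (-0.63 by the brighter and -0.70 by the dimmer), and lower than in forestomach at 1.5-fold by the dimmer probe alone (-0.64, against -0.57 by the brighter). Among the translesion genes, Mad2l2 was at 0.40 ± 0.25 in liver, -1.06 ± 0.24 in lung and -1.62 ± 0.16 in forestomach, and liver exceeded forestomach by 2.02 (adjusted p = 3.9e-07), the largest difference among the members. Rad18 was lowest in lung, at -1.98 ± 0.18, against -1.11 ± 0.53 in liver and -0.86 ± 0.23 in forestomach, and both of its probes were called. Polh was lower in lung than in forestomach by 0.63 on the log2 scale, a call that was lost without mouse 2 or 5. Rev3l was higher in lung than in liver by 0.76. Polk was called in none of these comparisons. Its brighter probe was higher in lung by less than 1.5-fold, at 0.51 against liver (limma adjusted p = 0.0059) and 0.50 against forestomach (adjusted p = 0.0040). Its dimmer probe had -0.02 and -0.01, so the probes disagreed.

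**Figure D5:**
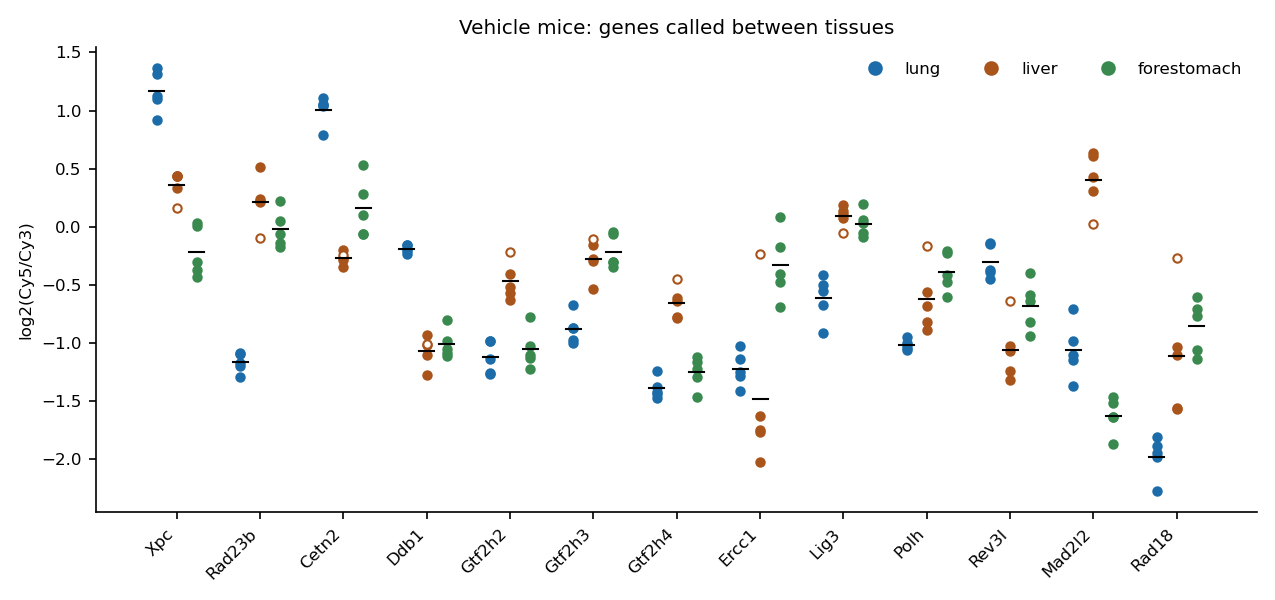
Log2 ratio in the vehicle mice, by tissue, of the genes that were called between tissues (points are mice, black lines are means, brighter probe except for Lig3, open circles are arrays of the third liver slide). Xpc, Cetn2 and Ddb1 lie highest in lung and Mad2l2 highest in liver.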

How the data were processed

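RNA from random tissue sections was hybridised to Agilent SurePrint G3 Mouse arrays with the tissue in Cy5 and a universal mouse reference RNA in Cy3, without dye swap. The deposited files hold median spot intensity in both channels on a linear scale, which per the file headers was read with Feature Extraction 10.7.3.1. The authors also deposited log2 ratios per probe, here used as an alternative and correlated with the present values at 0.967 to 0.999 per array. No column was left unmatched to a sample.

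Cy5 and Cy3 median intensities of 59 arrays were loess-normalised within each array without background subtraction (limma 3.58.1, R 4.3.3), with control and non-uniform spots left out. Each array had 62976 spots, 59305 of them other than controls, and spots of 1 probe were averaged to 55681 probes (484 values missing). RefSeq tables (GRCm38.p6) gave 26413 probes 20018 symbols by unversioned accession. The 4 dose groups of a tissue were fitted together, tissues were compared in fits over both tissues, and p-values were adjusted over all probes. Such fits were tested on simulated data.

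The 31 members and all gene lists were chosen with earlier results of these data known. Genes named in the text are members, by role, and genes of the lists that passed the adjusted p. A gene with 2 probes was called when either was, and is otherwise represented by the brighter in Cy5. The promoter match, the count without a size limit and the background of genes above background on every array were added after the data were seen. The result of a gene of the leukocyte list is not reported here.

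Numbers pair samples because the tissues of a mouse share its number, although residuals of a mouse's tissues correlated only weakly (medians of -0.03 to 0.03, range -0.19 to 0.15). Alternatives were normexp background correction (offset 50), median centring in place of loess, the authors' values, probes above background only, slide and mouse as blocks, fits of vehicle and 1 dose, the liver without the third slide and leaving out each mouse.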

Additional observations from a re-analysis of the deposited data

Results flagged for a closer look

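Mice apart from the rest of their group were looked for by Dixon's gap test in the brighter probe of selected genes. In lung these were Polk, Rev1, Mad2l2, Ercc5, Ercc6, Xpa and Ddb2. In liver they were Polk, Ddb2, Rpa1 and Rpa3, and in forestomach Polk, Xpa, Polh and Ddb2. Other genes with a change named in the report, such as Cetn2 in lung, were not tested in this way. Of 60 groups, 4 were flagged, and chance alone flags about 1 in 20. In the vehicle liver, mouse 5 lay above the other 4 mice for Ddb2 (-0.26), Rpa1 (-0.91) and Rpa3 (-0.93). Its liver was the only vehicle array on the third liver slide, on which 10.7% to 12.9% of probes were above background. In the vehicle forestomach, mouse 2 lay below the others for Polk (-1.03). Without mouse 2 the forestomach high-dose mice would still lie above the other vehicle mice.

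The high-dose change of Ddb2 was flagged because it differed between lung and forestomach by a direct test, with a difference of 0.44.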

How the results depend on the processing

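Polk was called in the high-dose lung under every alternative tried (0.72 to 0.97 on the log2 scale, and 0.67 to 0.77 when each mouse was left out). With median centring, which moved the median change of all genes in the high-dose liver by -0.12, 7 members were called in the high-dose lung and 16 passed at any size, 4 were called for the lung trend and 15 passed at any size, 1 (Xpa) was called and passed in the high-dose forestomach, 0 passed in the low-dose lung, and 0 passed for lung against forestomach. Vehicle lung against liver then gave 1 member and liver against forestomach 1, against 5078 and 3703 of all genes. The high-dose liver changes reversed for Ddb1 (-1.78), Ddb2 (-0.24), Rpa1 (-1.33) and Rpa3 (-1.07). The number of all genes called went from 717 to 3208 in the high-dose lung and from 608 to 2435 for the lung trend. The share of all genes called that were higher in the high-dose lung went from 70.7% to 98.9%. The dimmer Polk probe did not pass (adjusted p = 0.062). The cause was not tested. In the low-dose lung, 0 members passed in the authors' values and in the fit of vehicle and 1 dose, and 2 passed with probes above background or with slide as a block. With probes above background, 11 passed in the high-dose lung, 1 (Ddb1) for the liver trend, 1 (Mad2l2) was called and passed for lung against liver, and 2 passed for lung against forestomach. With slide as a block, 2 passed at the medium lung dose, 1 (Ddb1) for the liver trend, and for the lung against liver effect 1 was called and 2 passed. Without the third liver slide, 1 (Rad23b) was called and passed for that effect. Shares of all genes are not given for these settings, nor for the counts at any size with median centring. Those member counts therefore have no background beside them. Leaving out each mouse gave 0 to 1 in the low-dose lung, 1 to 2 at the medium dose, 0 to 1 for lung against liver by both rules, 0 to 2 for lung against forestomach at any size, and 2 (without mouse 1) to 7 (without mouse 3) for vehicle liver against forestomach. With the mouse number as a block, which pairs a mouse's tissues, 11, 9 and 4 members were called between vehicle tissues and the Ddb2 difference was 0.44 (adjusted p = 0.035), so no call changed.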
